A study of Homo sapiens with 4 samples.

Results

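Lysosome and autophagy genes were followed across 4 human prostate cancer cell lines with 1 RNA library each. The members were 43 named genes, taken as every row of the deposited count table that carried one of the names, and all 43 were present among the 22637 genes of the table. LNCaP is a castration-sensitive line and LN-OlapR is the olaparib-resistant line derived from it. C4-2B is a castration-resistant line that descends from LNCaP, and 2B-OlapR is the olaparib-resistant line derived from C4-2B. Olaparib inhibits PARP, an enzyme of DNA repair, and both resistant lines had been selected by long exposure to rising doses of it. For the RNA all 4 lines were labelled untreated and had been plated without a selecting agent, for 48 h by the series' design text. The study's methods give a longer time. They also state that the resistant lines were maintained in medium with olaparib, which the parental medium is not said to contain. The part of such exposure in the differences below was not tested. Each line is a single culture with no replicate library, so no difference was tested, and the intervals of levels, shares and ratios cover counting error only. All values of LN-OlapR against LNCaP are called the LN pair, and those of 2B-OlapR against C4-2B the 2B pair.

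Lysosomes are acidic compartments in which hydrolases degrade proteins, glycans and lipids, and a proton pump in their membrane, the V-ATPase, keeps them acidic. Autophagy delivers cytoplasm to them: initiation factors start a cup-shaped membrane, a conjugation system attaches ATG8 proteins to it, receptors such as p62 bring in cargo, and the closed vesicle fuses with a lysosome. The MiT/TFE transcription factors TFEB, TFE3 and MITF bind E-box sequences with the core CACGTG and are known for activating many genes of both systems. In cancer cells both systems are known for recycling nutrients under stress.

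The E-box motif was therefore looked for in the promoter windows of the members, from 250 bases before to 50 bases after an annotated start. A gene with several windows was counted as holding a motif where any of its windows held it. RefSeq windows (GRCh38.p14) were matched for 34 of the 43 genes. CACGTG, searched on both strands, was found in 8 of them (23.5%), against 8.77% of all 27305 genes with a window. The longer TCACGTGA, which contains CACGTG, was found in 5 (14.7%), against 1.18% of all genes. TCATGTG, a variant core, was found in 2 (5.88%), against 3.59%. The upstream bases of 6 windows are shown because they hold the motifs of the genes discussed below. All are written 5′ to 3′ on the strand of the gene, in lower case with the E-box motifs in capitals. TCACGTGA is marked where both flanking bases fit and CACGTG otherwise. CACATGA in CTSA is the reverse complement of TCATGTG.
LAMP1, chr13:113297039-113297238, plus strand: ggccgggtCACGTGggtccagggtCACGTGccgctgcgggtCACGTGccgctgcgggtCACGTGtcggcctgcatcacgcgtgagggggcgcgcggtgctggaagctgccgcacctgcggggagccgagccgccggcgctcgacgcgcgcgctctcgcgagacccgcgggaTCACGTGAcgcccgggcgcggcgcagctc
MCOLN1, chr19:7522564-7522623, plus strand: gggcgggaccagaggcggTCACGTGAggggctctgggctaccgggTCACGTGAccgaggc
CTSA, chr20:45891275-45891334, plus strand: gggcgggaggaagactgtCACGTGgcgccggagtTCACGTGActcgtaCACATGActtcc
GAA, chr17:80101491-80101580, plus strand: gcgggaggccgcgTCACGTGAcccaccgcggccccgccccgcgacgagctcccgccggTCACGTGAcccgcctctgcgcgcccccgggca
ATP6V0D1, chr16:67481158-67481237, minus strand: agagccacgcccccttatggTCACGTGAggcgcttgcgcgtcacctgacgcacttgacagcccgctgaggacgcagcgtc
ATP6V0E2, chr7:149872878-149872967, plus strand: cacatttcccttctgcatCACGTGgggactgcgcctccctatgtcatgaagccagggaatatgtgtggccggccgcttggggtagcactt

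LAMP1 had the most CACGTG matches, 6 in its whole window, and CTSD and NEU1, not shown, carried 1 each. For ATP6V0E2 the first listed window is shown, and another, at chr7:149873719-149874018, held none of the 3 motifs. The windows of SQSTM1, NPC1, ATP6AP1, TFEB and WIPI1 held none of the 3 motifs, which says only that these letters are not in those windows. The 8 genes with CACGTG had a median log2 ratio of 0.24 for the 2B pair against -0.047 for the LN pair, with 1 gene at least 1.5-fold higher in each. The 26 genes without it, 25 of them analysed in the LN pair, had medians of 0.24 and 0.042, with 4 and 5 genes at least 1.5-fold higher. Over all genes 10.7% and 10.6% passed that limit. Matches are a description of the letters, and no binding was measured.

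The libraries held between 19950537 and 26394267 counts. Levels are given as normalized CPM, counts divided by the scaled library size, and ratios as log2 of the resistant over the parental level with a pseudocount of 0.5 counts. All 9 prostate luminal markers were above 1 normalized CPM in every library, with summed levels of 3607 in LNCaP against 6917 in LN-OlapR, and of 5366 in C4-2B against 4539 in 2B-OlapR. LNCaP stood apart in KLK3, the gene for prostate-specific antigen, at 53.1 against 1870 to 2685 normalized CPM in the other libraries. Of 11 markers of other cell types 4 were in the table, with summed levels of 10.5 to 29.2 normalized CPM. The part of these differences in the results below was not tested. In such bulk samples fewer cells of a kind and less RNA per cell cannot be told apart.

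Summed together, the 43 genes took a larger share of all counts in each resistant library than in its parental library. The share was 0.358% (95% Wilson interval 0.356 to 0.360) in LNCaP and 0.412% (0.410 to 0.415) in LN-OlapR. C4-2B stood at 0.370% (0.368 to 0.373) against 0.443% (0.440 to 0.446) for 2B-OlapR. Abundant members such as SQSTM1 and PSAP weigh most in these sums. All members together went from 94541 to 100050 counts in the LN pair, where ATP6V0E2 went from 6075 to 10239 and SQSTM1 from 6787 to 10530. In the 2B pair the sum went from 73882 to 92142 and SQSTM1 from 6685 to 12373. The larger sums were not shared by all members, as 13 of 41 were lower in the LN pair and 12 of 42 in the 2B pair. The gene-by-gene ratios below weigh each member equally. In the plot of levels by library, the members spread over a wide range of levels, and ATG9B and MAP1LC3A were the only members under 1 normalized CPM in any library.

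**Figure D1:**
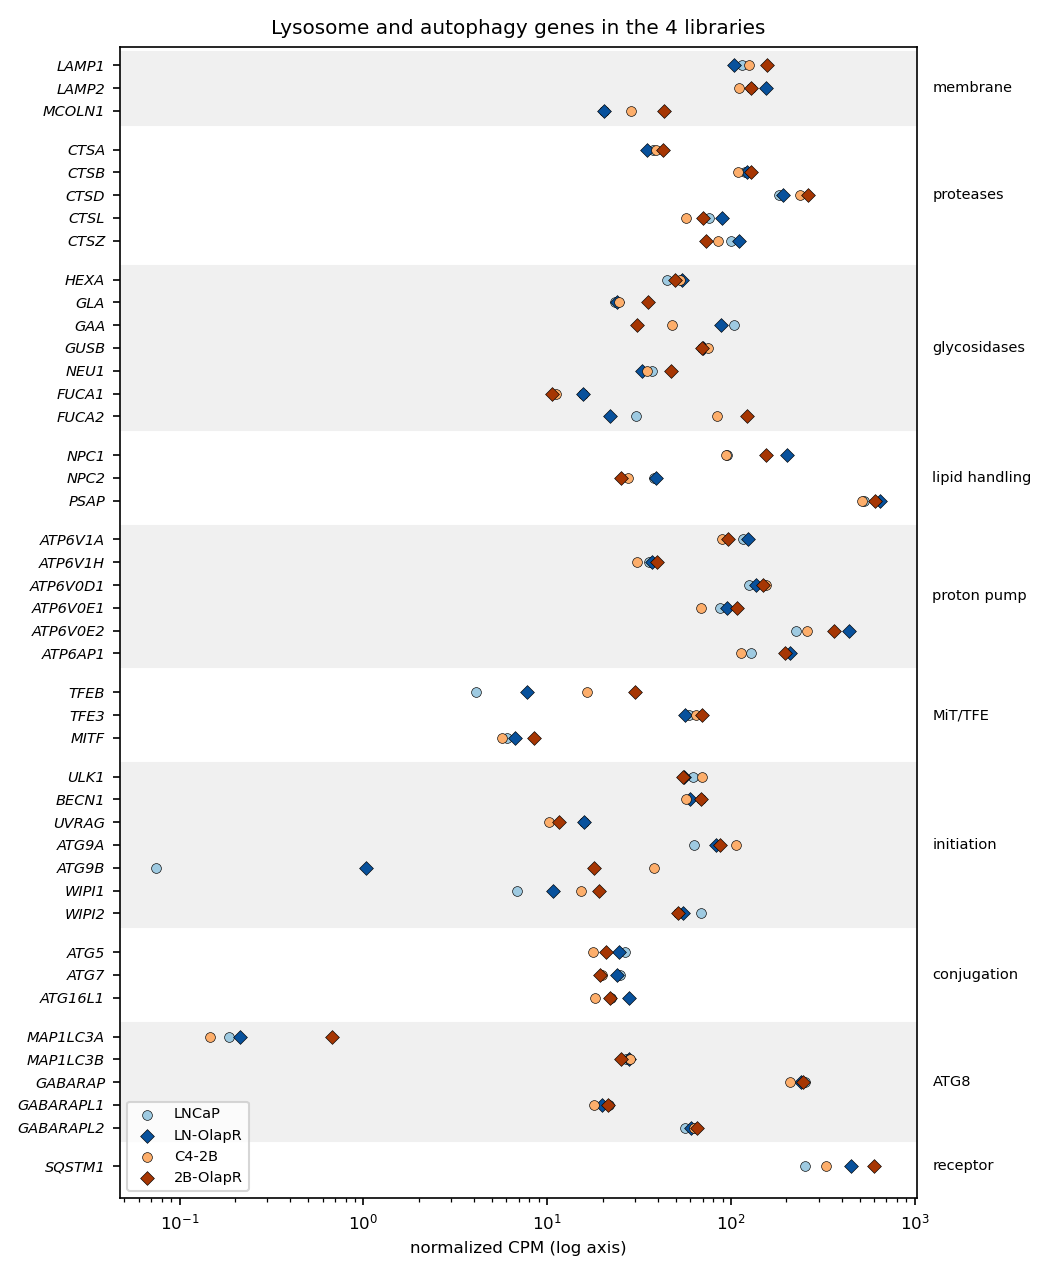
Normalized CPM (horizontal, log axis) of each of the 43 genes (rows, grouped by role) in the 4 libraries, 1 point per library, with circles for the parental lines and diamonds for the resistant lines. SQSTM1, NPC1, ATP6AP1 and TFEB show both diamonds to the right of the circle of the same colour family, and ATG9B is spread from 0.074 in LNCaP to 38.1 in C4-2B.

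In the 2B pair 42 members averaged at least 1 normalized CPM and were analysed, and MAP1LC3A was left out. Of these, 30 had a higher and 12 a lower level in 2B-OlapR, with counting intervals wholly above 0 for 25 and wholly below 0 for 5. Over all genes such intervals lay above 0 for 31.5% and below 0 for 30.8%. The median log2 ratio was 0.23, beside -0.0003 over all 15527 genes analysed. At least 1.5-fold higher were 6 members (14.3%), MCOLN1, NPC1, ATP6V0E1, ATP6AP1, TFEB and SQSTM1, where 10.7% of all genes passed the same limit. At least 1.5-fold lower were GAA and ATG9B (4.76%), where 13.5% of all genes passed. The share called higher thus lay near that of all genes, while the median lay above theirs. The limit of 1.5-fold corresponds to 0.585 on the log2 scale, with MCOLN1 just inside it at 0.587 and MITF just outside at 0.581.

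In the LN pair 41 members were analysed, without MAP1LC3A and ATG9B. A higher level in LN-OlapR was found for 28 and a lower one for 13, where 49.6% of all genes were higher. Counting intervals lay wholly above 0 for 17 and wholly below 0 for 8, and included 0 for the others. The shares of all genes with such intervals were not computed for this pair. When the libraries were scaled by their total counts alone, 18 of 41 members were higher. The median log2 ratio of the members was 0.046, beside -0.004 over all 15373 genes analysed. Under total counts it was -0.038, beside -0.088 over all genes. At least 1.5-fold higher were 6 members (14.6%), NPC1, ATP6V0E2, ATP6AP1, TFEB, WIPI1 and SQSTM1, where 10.6% of all genes passed. No member was at least 1.5-fold lower, where 10.8% of all genes passed, and the lowest, FUCA2, was at -0.48.

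Both resistant lines had 4 of the 41 members analysed in both pairs at least 1.5-fold higher, NPC1, ATP6AP1, TFEB and SQSTM1, where 2.42% of the 14602 genes analysed in both passed in both. No member was at least 1.5-fold lower in both, where 3% of all genes were. The members, and the lists of other pathway genes below, were chosen with earlier results of these data known. The shares beside those of all genes are therefore a description and not an independent comparison. The pairs share no library. Over the 41 members the ratios of the pairs had a Pearson correlation of 0.49 and a Spearman correlation of 0.31, a description over genes, which are not replicates. Across all genes these were 0.21 and 0.20. The direction was the same in both pairs for 56.1% of the members, 20 higher and 3 lower, and for 57.6% of all genes. Of the 41, 7 had counting intervals on opposite sides of 0 in the pairs, as had 16.3% of all genes, a share near that of the members.

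**Figure D2:**
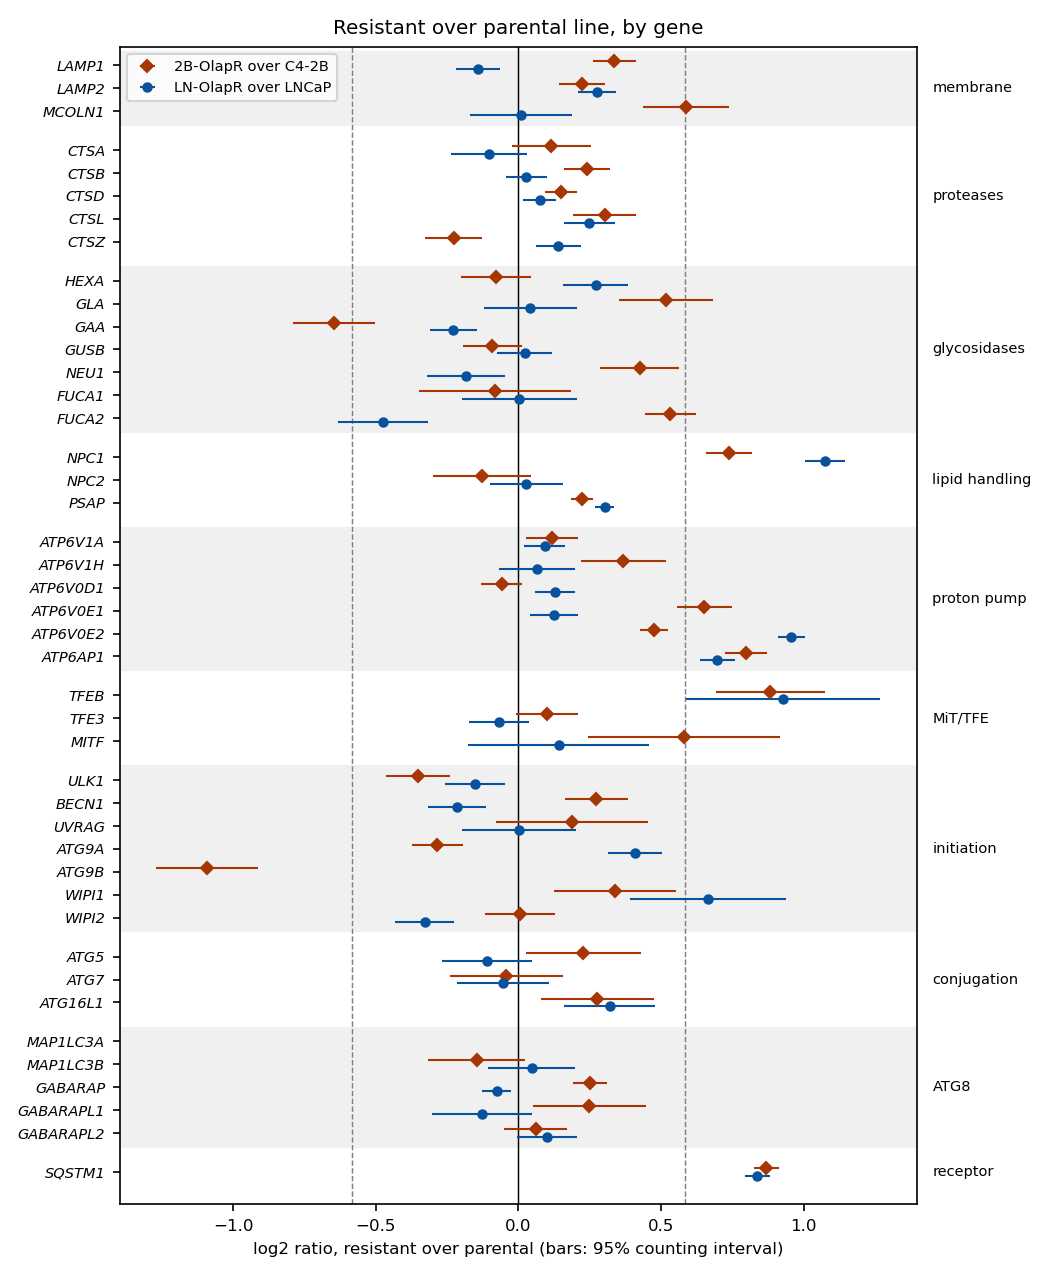
Log2 ratio of the resistant over the parental line (horizontal) for each member analysed (rows, grouped by role), with diamonds for the 2B pair, circles for the LN pair, bars for 95% counting intervals and dashed lines at 1.5-fold. NPC1, ATP6AP1, TFEB and SQSTM1 lie beyond the right dashed line in both pairs, and ATG9B is farthest to the left at -1.09 in the 2B pair.

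**Figure D3:**
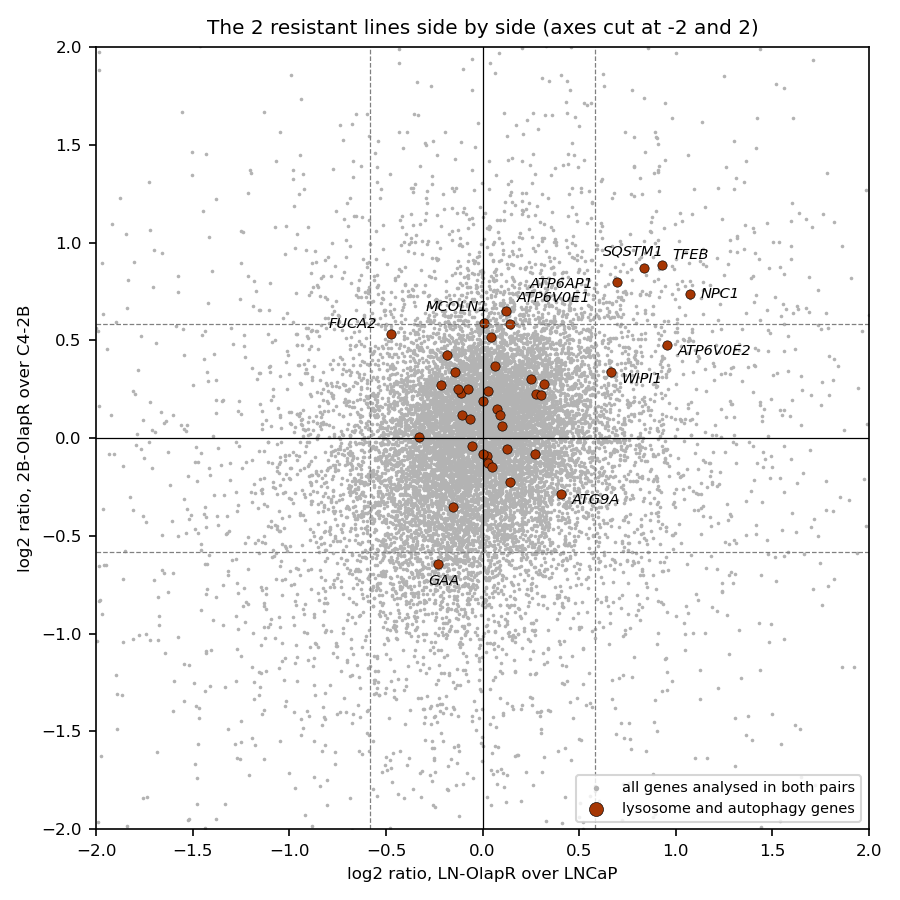
Log2 ratio in the 2B pair (vertical) against that in the LN pair (horizontal) for the 41 members (large points) and all 14602 genes analysed in both (grey), with dashed lines at 1.5-fold and both axes ending at -2 and 2. The 4 members called in both pairs stand in the upper right corner, and FUCA2 and ATG9A stand on opposite sides of 0 in the pairs.

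SQSTM1 encodes p62, the receptor that binds ubiquitinated cargo and ATG8 proteins, and lies on the plus strand at chr5:179806398-179838078 (GRCh38, GENCODE 29). Its level was 252 normalized CPM in LNCaP against 451 in LN-OlapR, and 327 in C4-2B against 597 in 2B-OlapR. Its log2 ratio reached 0.84 (0.79 to 0.88, 1.79-fold) in the LN pair and 0.87 (0.83 to 0.91, 1.83-fold) in the 2B pair, and both resistant lines stood above both parental lines. SQSTM1 shares 1582 exon bases with MRNIP on the opposite strand, and whether the counting used strand is not stated. MRNIP itself held 575 and 725 counts in LNCaP and LN-OlapR and 453 and 651 in C4-2B and 2B-OlapR. MGAT4B, also on the opposite strand, shares 105 exon bases and held 3137 and 3964 counts in the LN pair and 3476 and 4847 in the 2B pair. The part of both neighbours in the SQSTM1 values was not tested.

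NPC1 encodes the membrane protein that exports cholesterol from lysosomes, on the minus strand at chr18:23506184-23586898. It was at 95.3 normalized CPM in LNCaP against 200.9 in LN-OlapR, and at 93.4 in C4-2B against 155.9 in 2B-OlapR. The parental lines were near each other and both resistant lines were above them. The log2 ratio was 1.08 (1.01 to 1.14, 2.11-fold) in the LN pair, the highest of the members analysed there, and 0.74 (0.66 to 0.82, 1.67-fold) in the 2B pair. NPC1 shares 604 exon bases with RMC1 on the opposite strand. RMC1 held 682 and 506 counts in LNCaP and LN-OlapR and 637 and 609 in C4-2B and 2B-OlapR. The part of RMC1 in the NPC1 values was not tested. NPC2, the soluble protein that hands cholesterol to NPC1, was at 38.1, 38.8, 27.6 and 25.2 normalized CPM in LNCaP, LN-OlapR, C4-2B and 2B-OlapR. Its ratios of 0.028 and -0.13 had intervals that included 0. PSAP, the precursor of the saposins that assist sphingolipid breakdown, was at 526, 649, 518 and 605 in the same order. Its ratios of 0.30 (0.27 to 0.34) and 0.22 (0.19 to 0.26) stayed under 1.5-fold.

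TFEB, the MiT/TFE factor on the minus strand at chr6:41683978-41736259, was higher in each resistant line than in its parental line and higher in C4-2B than in LNCaP. It held 4.09 normalized CPM in LNCaP (110 counts), 7.80 in LN-OlapR (182 counts), 16.4 in C4-2B (335 counts) and 30.2 in 2B-OlapR (626 counts), with no overlap of the counting intervals. The log2 ratio was 0.93 (0.59 to 1.27, 1.90-fold) in the LN pair and 0.88 (0.69 to 1.07, 1.84-fold) in the 2B pair. C4-2B over LNCaP was at 2.00 (1.69 to 2.31, 3.99-fold), so the castration-resistant parental line stood above LN-OlapR. TFE3 was the most abundant of these factors per length, at 17.3, 16.5, 18.9 and 20.2 normalized CPM per kb of its longest coding transcript in LNCaP, LN-OlapR, C4-2B and 2B-OlapR, against 1.58, 3.01, 6.31 and 11.6 for TFEB. MITF stood lowest of them in all 4 libraries, at 1.25, 1.38, 1.18 and 1.76 normalized CPM per kb.

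TFE3 differed little between the lines, with log2 ratios of -0.067 (-0.17 to 0.039) in the LN pair and 0.099 (-0.0085 to 0.21) in the 2B pair. MITF, best known as a melanocyte factor, had 6.03, 6.65, 5.67 and 8.49 normalized CPM, and its log2 ratio of 0.58 (0.24 to 0.92) in the 2B pair fell just short of the limit.

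**Figure D4:**
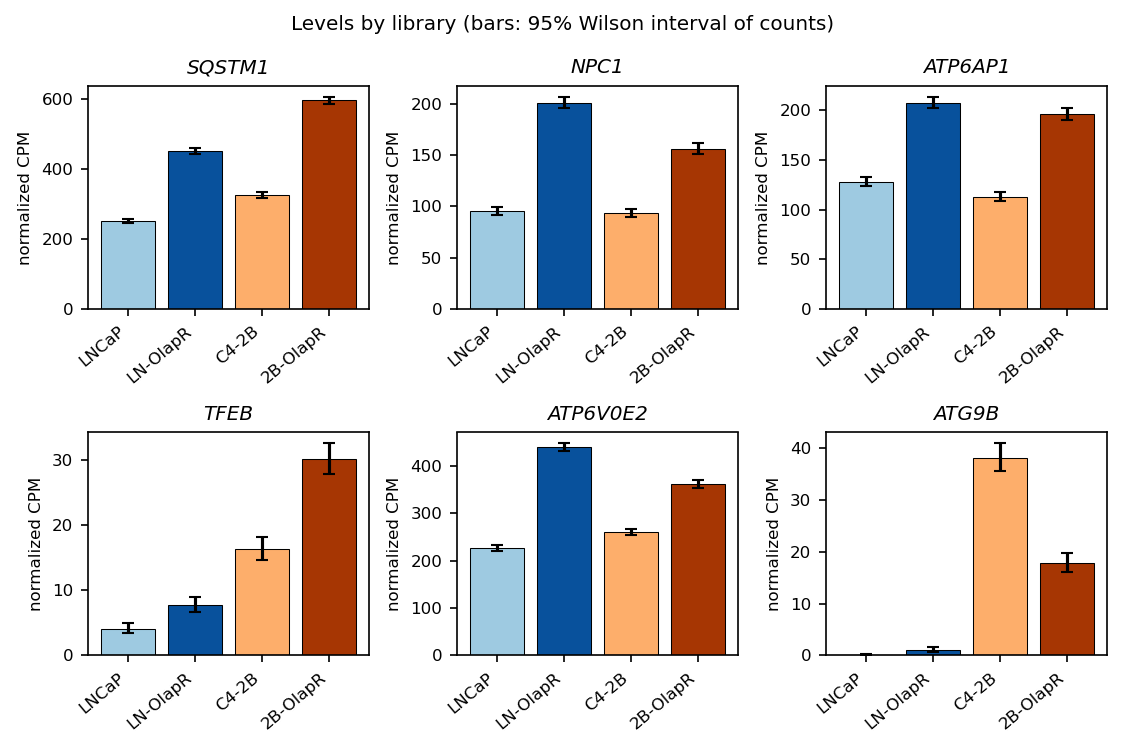
Normalized CPM (vertical, linear axes from 0) of SQSTM1, NPC1, ATP6AP1, TFEB, ATP6V0E2 and ATG9B in the 4 libraries, 1 bar per library with its 95% Wilson counting interval. Both resistant lines exceed their parental lines in the first 5 genes, while ATG9B is highest in C4-2B at 38.1 and lower in 2B-OlapR at 17.9.

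The proton pump had 6 members, and 5 of them were higher in 2B-OlapR, with a median log2 ratio of 0.42 and 2 called, ATP6AP1 and ATP6V0E1. All 6 were higher in LN-OlapR, with a median of 0.13 and 2 called, ATP6AP1 and ATP6V0E2, except that ATP6V1H was at -0.020 under total counts. ATP6AP1, an accessory subunit needed for pump assembly, at chrX:154428632-154436516 on the plus strand, was at 128 normalized CPM in LNCaP against 208 in LN-OlapR, and at 113 in C4-2B against 197 in 2B-OlapR. Its log2 ratios were 0.70 (0.64 to 0.76, 1.62-fold) and 0.80 (0.72 to 0.87, 1.74-fold) in the LN and the 2B pair. Each resistant line stood above both parental lines.

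ATP6V0E1 and ATP6V0E2 encode alternative forms of the small e subunit of the membrane sector, and each was called in only one of the pairs. ATP6V0E2, at chr7:149872968-149891204 on the plus strand, was at 226 normalized CPM in LNCaP against 439 in LN-OlapR, and at 260.1 in C4-2B against 362 in 2B-OlapR. Its log2 ratio was 0.96 (0.91 to 1.004, 1.94-fold) in the LN pair and 0.48 (0.42 to 0.53) in the 2B pair. ATP6V0E1 was at 86.9, 94.7, 68.8 and 108 in LNCaP, LN-OlapR, C4-2B and 2B-OlapR, with 0.12 (0.040 to 0.21) in the LN pair and 0.65 (0.56 to 0.75, 1.57-fold) in the 2B pair. The counting intervals of the ratios of the pairs did not overlap for either gene, a difference that was not tested. ATP6V0E2 shares 864 exon bases with its antisense gene ATP6V0E2-AS1, which held 153 counts in LNCaP against 392 in LN-OlapR, with 208 and 205 in the 2B pair, and was also highest in LN-OlapR. Its part in the ATP6V0E2 values was not tested.

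The remaining pump genes stayed under 1.5-fold in both pairs. ATP6V1A, the catalytic subunit, was at 116, 124, 89.0 and 96.5 normalized CPM in LNCaP, LN-OlapR, C4-2B and 2B-OlapR, with log2 ratios of 0.092 and 0.12. ATP6V1H, a regulatory subunit, was at 35.7, 37.4, 30.7 and 39.6, with 0.065 (-0.068 to 0.20) and 0.37 (0.22 to 0.52). ATP6V0D1, whose promoter carries TCACGTGA, was at 125, 137, 155 and 149, with 0.13 in the LN pair and -0.058 (-0.13 to 0.013) in the 2B pair. It was the single pump member with a negative value in the 2B pair.

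Among the membrane genes, 3 of 3 were higher in 2B-OlapR, with a median log2 ratio of 0.34. MCOLN1, the TRPML1 calcium channel of lysosomes, was at 20.2 normalized CPM in LNCaP against 20.4 in LN-OlapR, and at 28.6 in C4-2B against 43.0 in 2B-OlapR. The 2B pair gave a ratio of 0.59 (0.44 to 0.74), against 0.0093 (-0.17 to 0.19) for the LN pair, and the call was lost at 0.55 when libraries were scaled by total counts. LAMP1 and LAMP2 are the abundant glycoproteins that line the lysosome. LAMP1, the gene with the most E-box matches, was at 114, 103, 125 and 157 normalized CPM in LNCaP, LN-OlapR, C4-2B and 2B-OlapR, with -0.14 (-0.22 to -0.066) in the LN pair and 0.34 (0.26 to 0.41) in the 2B pair. LAMP2 was at 128, 155, 110.2 and 129, with 0.28 (0.21 to 0.34) and 0.22 (0.14 to 0.30).

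None of the 5 cathepsins, the proteases of the lumen, was called in either pair. CTSL had the highest ratio of the group in both, 0.25 (0.16 to 0.34) in the LN pair and 0.30 (0.19 to 0.41) in the 2B pair, from 75.4 and 89.6 normalized CPM in LNCaP and LN-OlapR and 56.7 and 70.0 in C4-2B and 2B-OlapR. CTSZ, a carboxypeptidase, was at 99.9, 110.1, 85.4 and 73.0 in LNCaP, LN-OlapR, C4-2B and 2B-OlapR, with 0.14 (0.062 to 0.22) in the LN pair and -0.23 (-0.33 to -0.13) in the 2B pair. CTSA, the protective protein that stabilizes NEU1, was at 37.6, 35.0, 39.1 and 42.4, with -0.10 (-0.24 to 0.029) and 0.12 (-0.022 to 0.25). CTSB and CTSD, the major cysteine and aspartic proteases, lay between these, at 0.028 and 0.24 for CTSB and 0.074 and 0.15 for CTSD in the LN and the 2B pair. CTSD was the most abundant cathepsin per length in every library, at 86.2 to 124 normalized CPM per kb.

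The 7 glycosidases did not move one way. In the 2B pair 3 were higher and 4 lower, with a median log2 ratio of -0.080, and in the LN pair 4 were higher and 3 lower, with a median of 0.0025. GAA, the acid alpha-glucosidase that breaks down glycogen, was the lowest of them in the 2B pair and carries a pair of TCACGTGA sites. It was at 104 normalized CPM in LNCaP, then 88.5 in LN-OlapR, then 47.9 in C4-2B and then 30.6 in 2B-OlapR, a stepwise order in which no counting intervals overlapped. On the log2 scale the ratio was -0.65 (-0.79 to -0.50) in the 2B pair, 1.56-fold lower, and -0.23 (-0.31 to -0.15) in the LN pair, while C4-2B over LNCaP was -1.11 (-1.22 to -1.01).

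FUCA2, a fucosidase, took the opposite order between the backgrounds. Its levels were 30.5 normalized CPM in LNCaP against 21.9 in LN-OlapR, but 84.2 in C4-2B against 122 in 2B-OlapR. On the log2 scale this gave -0.48 (-0.63 to -0.32) in the LN pair and 0.53 (0.44 to 0.62) in the 2B pair, both under 1.5-fold, and C4-2B over LNCaP was 1.47 (1.35 to 1.59, 2.76-fold). FUCA1, its lysosomal relative, was at 15.6, 15.6, 11.2 and 10.6 in LNCaP, LN-OlapR, C4-2B and 2B-OlapR, with ratios of 0.0025 and -0.082 whose intervals included 0. HEXA, the alpha subunit of hexosaminidase, was at 44.6, 53.8, 52.4 and 49.6, with 0.27 (0.16 to 0.39) in the LN pair and -0.080 in the 2B pair. NEU1, the lysosomal sialidase, was at 37.3, 32.8, 35.0 and 47.1, with -0.18 (-0.32 to -0.048) and 0.43 (0.29 to 0.56). GLA, which removes terminal galactose from glycolipids, had 0.042 and 0.52, and GUSB, the beta-glucuronidase, had 0.022 and -0.092, in the LN and the 2B pair.

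The initiation genes held the widest values of all members. ATG9A and ATG9B encode the membrane scramblases whose vesicles seed the autophagosome. ATG9B, on the minus strand at chr7:151012209-151024499, had 2 counts in LNCaP against 24 in LN-OlapR, and 780 in C4-2B against 370 in 2B-OlapR, or 0.074, 1.03, 38.1 and 17.9 normalized CPM. LNCaP was under the floor of 3 counts, 0.112 normalized CPM in that library. The log2 ratio was 8.68 (6.89 to 10.5) for C4-2B over LNCaP and 3.50 (1.62 to 5.37) in the LN pair. Both rest on those 2 counts, the first moved to 8.0047 with a pseudocount of 2 counts, and ATG9B was analysed in the parental comparison only through its level in C4-2B and not at all in the LN pair. In the 2B pair it was -1.09 (-1.27 to -0.91), 2.13-fold lower, the lowest of the 42 members. ATG9B shares 786 exon bases with NOS3 on the opposite strand, which had 14, 91, 114 and 113 counts in the same order. NOS3 was also lowest in LNCaP, and its part in the ATG9B values was not tested.

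ATG9A had a narrower range, at 62.7, 83.2, 106 and 87.1 normalized CPM in LNCaP, LN-OlapR, C4-2B and 2B-OlapR. Its log2 ratios were 0.41 (0.31 to 0.50) in the LN pair and -0.28 (-0.38 to -0.20) in the 2B pair, and C4-2B over LNCaP was 0.76 (0.67 to 0.85). ATG9A shares 1833 exon bases with AC068946.2 on the same strand, which had 209, 301, 215 and 366 counts in the same order. The part of AC068946.2 in the ATG9A values was not tested. WIPI1 and WIPI2 bind the lipid PI3P on the forming membrane. WIPI1 was at 6.81, 10.8, 15.2 and 19.2 in the same order, which is only the order of listing. Levels of TFEB, MCOLN1, CTSD, GLA and GABARAPL2 also rose along it. For MCOLN1, GLA and GABARAPL2 the intervals of the LN ratios included 0. The ratio of WIPI1 was 0.67 (0.39 to 0.94, 1.59-fold) in the LN pair and 0.34 (0.12 to 0.55) in the 2B pair. Its LN call was lost at 0.581 under total counts. WIPI1 shares 828 exon bases with ARSG on the opposite strand, which had 667, 674, 497 and 444 counts. WIPI2 was at 68.5, 54.5, 51.2 and 51.4, with -0.33 (-0.43 to -0.23) and 0.0065 (-0.12 to 0.13).

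ULK1, the kinase that starts autophagy, was lower in both resistant lines without reaching the limit, at 61.9 and 55.7 normalized CPM in LNCaP and LN-OlapR and 69.7 and 54.6 in C4-2B and 2B-OlapR. The log2 ratios were -0.15 (-0.26 to -0.048) and -0.35 (-0.46 to -0.24). BECN1, a subunit of the class III PI3 kinase, was at 69.0, 59.5, 56.7 and 68.5 in LNCaP, LN-OlapR, C4-2B and 2B-OlapR, with -0.22 (-0.32 to -0.12) in the LN pair and 0.27 (0.16 to 0.39) in the 2B pair. It shares 300 exon bases with PSME3 on the opposite strand, which held 6663, 4882, 4277 and 5381 counts, and the part of PSME3 was not tested. UVRAG, a partner of BECN1, was at 15.8, 15.9, 10.2 and 11.6, with 0.0017 and 0.19 (-0.080 to 0.45).

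The 3 conjugation genes, ATG5, ATG7 and ATG16L1, supply the enzyme and scaffold that attach ATG8 proteins to lipid, and none was called in either pair. ATG16L1 was at 22.4, 27.9, 18.1 and 21.9 normalized CPM in LNCaP, LN-OlapR, C4-2B and 2B-OlapR, with ratios of 0.32 (0.16 to 0.48) and 0.28 (0.079 to 0.47). ATG5 was at 26.5, 24.6, 17.8 and 20.9, with -0.11 (-0.27 to 0.048) and 0.23 (0.027 to 0.43). ATG7 was at 25.0, 24.1, 19.9 and 19.4, with -0.053 and -0.043, both with intervals that included 0. ATG7 shares 1596 exon bases with VGLL4 on the opposite strand, which held 1611, 1270, 1277 and 1284 counts in the same order. The part of VGLL4 in the ATG7 values was not tested. All 3 conjugation genes were lower in C4-2B than in LNCaP, by log2 ratios of -0.31 to -0.57.

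The ATG8 family, the proteins that coat autophagosomes, was compared per length of transcript. GABARAP was the most abundant in every library, at 154 and 146 normalized CPM per kb in LNCaP and LN-OlapR and 127 and 152 in C4-2B and 2B-OlapR, or 61.0% to 67.1% of the family sum. GABARAPL2 followed at 56.2, 60.3, 62.9 and 65.6. MAP1LC3B, with 9.98, 10.3, 10.4 and 9.43, and GABARAPL1, with 9.47, 8.67, 7.86 and 9.34 in the same order, came next. MAP1LC3A was lowest, at 0.12, 0.14, 0.093 and 0.43, from 5, 5, 3 and 14 counts. The family sum was 230.1, 226, 209 and 236 normalized CPM per kb, as drawn in the plot of the family by library. A near-identical copy, MAP1LC3B2, makes the split of reads for MAP1LC3B uncertain.

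**Figure D5:**
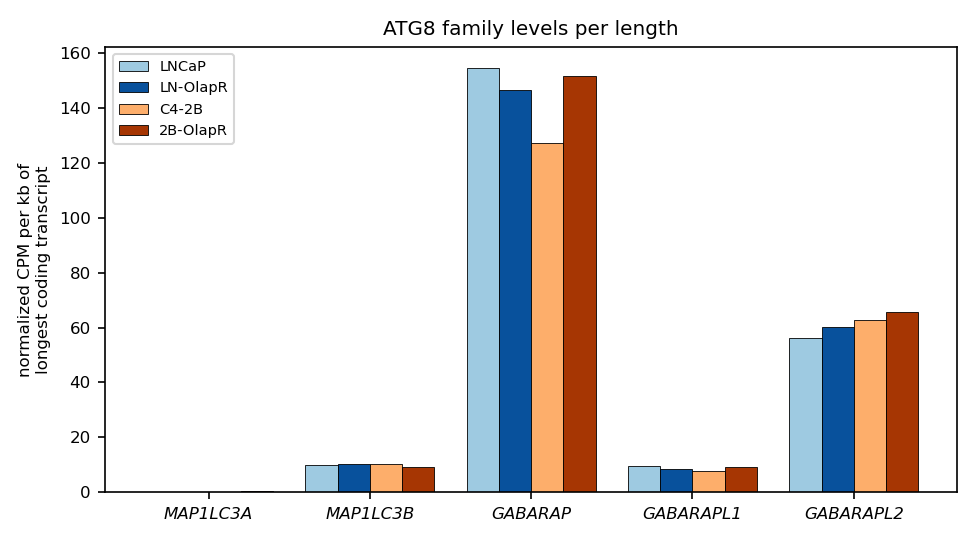
Normalized CPM per kb of the longest coding transcript (vertical, linear axis from 0) for the 5 ATG8 family genes in the 4 libraries, 1 bar per library and no error bars. GABARAP is tallest in each library, between 127 and 154, and C4-2B has its lowest bar.

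None of the 4 ATG8 genes analysed was called in either pair. GABARAP had log2 ratios of -0.077 (-0.13 to -0.026) in the LN pair and 0.25 (0.19 to 0.31) in the 2B pair. GABARAPL1 had -0.13 (-0.30 to 0.049) and 0.25 (0.050 to 0.45). GABARAPL2 had 0.10 and 0.060, and MAP1LC3B 0.046 and -0.15, all with intervals that included 0. MAP1LC3A, near the floor in the parental lines, had 2.03 (0.35 to 3.72) in the 2B pair, where it was not among the genes analysed.

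The parental lines were compared as well, as both backgrounds enter the study. This comparison shares C4-2B with the 2B pair and LNCaP with the LN pair, so the values are given beside each other and not related. Of 42 members analysed, 19 were higher and 23 lower in C4-2B. Their median log2 ratio was -0.058, beside -0.016 over all genes. At least 1.5-fold higher were 5 (11.9%), TFEB, ATG9B, WIPI1, FUCA2 and ATG9A, where 16.1% of all genes passed. Of these, ATG9B had 2 counts in LNCaP and was analysed only through its level in C4-2B. At least 1.5-fold lower were GAA and UVRAG (4.76%), where 16.1% of all genes passed as well. WIPI1 was at 1.16 (0.89 to 1.42, 2.23-fold) and UVRAG at -0.63 (-0.87 to -0.39). SQSTM1 was at 0.37 (0.32 to 0.42) and ATP6AP1 at -0.18 (-0.26 to -0.10), and NPC1 at -0.029 had an interval that included 0.

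Other genes of the same pathways were taken from lists of 147, of which 141 were in the table. In the 2B pair 17 of 136 analysed (12.5%) were at least 1.5-fold higher and 9 (6.62%) lower, beside 10.7% and 13.5% of all genes, with a median log2 ratio of -0.014. In the LN pair 8 of 137 (5.84%) were higher and 7 (5.11%) lower, beside 10.6% and 10.8%, with a median of 0.067. None of the 135 analysed in both was called higher in both, and FNIP2, a partner of the folliculin complex, was called lower in both, beside 2.42% and 3% of all genes. The members' own medians were 0.23 in the 2B pair, above that of these genes, but 0.046 in the LN pair, below it.

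Among these genes, where their mean level reached 10 normalized CPM, SCARB2 and CD164 were near the top in the 2B pair. SCARB2, the receptor that carries glucocerebrosidase to lysosomes, went from 218 to 445 normalized CPM, a log2 ratio of 1.03 (0.98 to 1.08). CD164, a sialomucin, was at 0.94. The lowest of them were TPP1, a tripeptidyl peptidase that fell from 56.2 to 24.7 normalized CPM, a log2 ratio of -1.18 (-1.33 to -1.03), the mannose 6-phosphate receptor IGF2R at -0.80, the sulfatase ARSA at -0.70 and FNIP2 at -0.68.

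In the LN pair, above the same mean level, the highest were the pump subunit ATP6V1F at 0.94 (0.86 to 1.01), the protease CTSC at 0.81, the sulfatase IDS at 0.74 and ATG4A, which trims ATG8 proteins, at 0.68. The lowest at that level was SORT1, the sorting receptor sortilin, which fell from 26.8 to 6.04 normalized CPM, a log2 ratio of -2.15 (-2.41 to -1.89). ULK2, the relative of ULK1, was at -1.53 and GNPTAB, which makes the mannose 6-phosphate tag, at -0.79. The other 16 subunits of the pump in the table had medians of 0.11 for the 2B pair against 0.17 for the LN pair over the 14 analysed, with 10 of 14 higher in each. Of these 14, 0 were called higher and 1 lower in the 2B pair, and 1 higher and 0 lower in the LN pair.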

How the data were processed

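Total RNA from 4 cell lines was made into stranded mRNA libraries, 1 per line. The authors deposited estimated counts per gene, not scaled between libraries, in which 46.2% of the values were not whole. The submitters' processing notes name STAR, Partek and GRCh38/hg38, and the versions and the use of strand are not given in the sources used here. Every gene summed to at least 10.0 over the libraries. Counts were rounded to whole numbers and scaled by TMM factors (edgeR 4.0.16, R 4.3.3), and ratios and intervals were computed in Python 3.11.15. Analysed were genes whose mean over the libraries compared reached 1 normalized CPM, and a gene was called at 1.5-fold. Ratios carry normal counting intervals and levels Wilson intervals, both at 95%, and both cover counting error alone. The floor of 3 counts was 0.112 to 0.147 normalized CPM. Groups followed the cell line labels. The members and lists were chosen with earlier results of these data known. Named in full were members called in either pair, the highest and lowest of each role, the ATG8 genes, the MiT/TFE factors and SQSTM1, and of the other pathway genes the 4 highest and 4 lowest among those whose mean reached 10 normalized CPM, some of which are not reported here. The scripts were tested on simulated data. Coordinates and transcript lengths are from GENCODE 29.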

Additional observations from a re-analysis of the deposited data

Results flagged for a closer look

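For 7 members the LN and the 2B pair pointed opposite ways, with counting intervals of the ratios on either side of 0, so that the resistant line was higher than its parental line in one background and lower in the other. Over all genes 16.3% met the same rule, near the share of the members. With 1 library per line the difference was not tested, and its size is given as the log2 ratio in the 2B pair minus that in the LN pair. It was 1.01 (0.83 to 1.19) for FUCA2, 0.61 (0.41 to 0.80) for NEU1, 0.49 (0.34 to 0.64) for BECN1, 0.48 (0.37 to 0.59) for LAMP1 and 0.33 (0.25 to 0.41) for GABARAP, all higher in 2B-OlapR and lower in LN-OlapR. It was -0.69 (-0.82 to -0.56) for ATG9A and -0.37 (-0.49 to -0.24) for CTSZ, both lower in 2B-OlapR and higher in LN-OlapR.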

How the results depend on the processing

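Scaling by total counts, DESeq2 size factors or upper quartiles, a pseudocount of 2 counts, minimum means of 0.1 and 10 normalized CPM, and unrounded values were tried. Across them 5 to 7 members were at least 1.5-fold higher in the 2B pair, 4 to 7 in the LN pair and 5 in C4-2B over LNCaP, and the medians of the 2B pair and of C4-2B over LNCaP kept their signs. NPC1, ATP6AP1, TFEB and SQSTM1 remained called in both pairs in each, except that TFEB in the LN pair was under the minimum of 10. The LN median moved from 0.046 to -0.0378 under total counts, a scaling that lowers the median of all genes there by 0.084 on the log2 scale. A limit of 2-fold left 0 members higher and 1 lower in the 2B pair, and 1 higher in the LN pair. In C4-2B over LNCaP it left 4 higher, ATG9B among them, and 1 lower. It left 0 in the same direction in both resistant lines. The labels carry no replicate numbers and each cell line has 1 library, so no library could be left out. Each resistant line has its own parental line, but a paired fit that takes the backgrounds as replicates of resistance was not run.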
